A study of Mus musculus with 14 samples.

Results

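Local regulators of clotting and of fibrin breakdown were followed as 9 genes in mouse liver. They were chosen by symbol for their known roles, by a rule with no measured value in it but with earlier results of these data known, out of 55357 genes in the count files. The members were the urokinase receptor gene Plaur, the plasminogen activator genes Plau and Plat, the tissue factor gene F3, the endothelial anticoagulant genes Procr and Thbd, the crosslinking factor gene F13a1, the fibrinogen-like gene Fgl2 and the thrombospondin gene Thbs1. Liver RNA came from 8 model mice and 6 control mice, all C57BL/6 males aged 5 to 6 weeks before a week of acclimatisation. Model mice received LPS, a bacterial cell wall lipid, at 10 µg/kg and D-GalN (D-galactosamine), a hepatocyte toxin, at 300 mg/kg, both injected into the peritoneal cavity, control mice received normal saline, and livers were taken 24 h later. LPS and D-GalN were given together, so the effects of each cannot be told apart. The RNA was of whole liver, in which more cells of a type and more RNA per cell cannot be told apart. The labels number the samples of a group without saying which share a litter, cage or day, so the p-values reflect sample-to-sample spread, which may be partly technical.

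Clotting starts when tissue factor meets factor VII, and ends in thrombin and a fibrin mesh that factor XIII crosslinks. Thrombomodulin and the endothelial protein C receptor turn thrombin towards activation of protein C, which slows clotting. Urokinase and tissue plasminogen activator cut plasminogen to plasmin, which dissolves fibrin, and the urokinase receptor holds this activity at the cell surface. Thrombospondin 1 is a matrix glycoprotein of platelets and many other cells that activates latent TGF-beta and binds CD47 and CD36.

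Of the 9 genes, 8 were higher in model livers and 0 lower, and urokinase (Plau) did not pass the test. Increases ran over a wide range of sizes. Thbs1 was about 649-fold higher, Procr 94.7-fold, Plaur 93.4-fold, Thbd 31.3-fold, F13a1 29.3-fold, Fgl2 8.96-fold, Plat 5.62-fold and F3 3.26-fold. These values came from edgeR's quasi-likelihood test on the raw counts, with adjustment over all 12915 genes tested and a threshold of 0.05. The 8 also had model values all above the control values. Over all genes tested, 47.9% were called in either direction and 26.6% were called higher, 20.3% were called at least 2-fold higher, 14.6% had model values all above the control values and 8.63% all below. The median log2 fold change was 4.88 over the 9 members and 0.0099 over all genes tested. All 9 passed the filter on low counts, which asks for about 10 counts at the median depth in 6 libraries. Plau, F3 and Fgl2 reached that level in every control library. The other 6 passed only because of the model libraries, among them Plat and F13a1, which reached it in no control library, so the count of members called is a description and no support for a rise of the group.

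**Figure D1:**
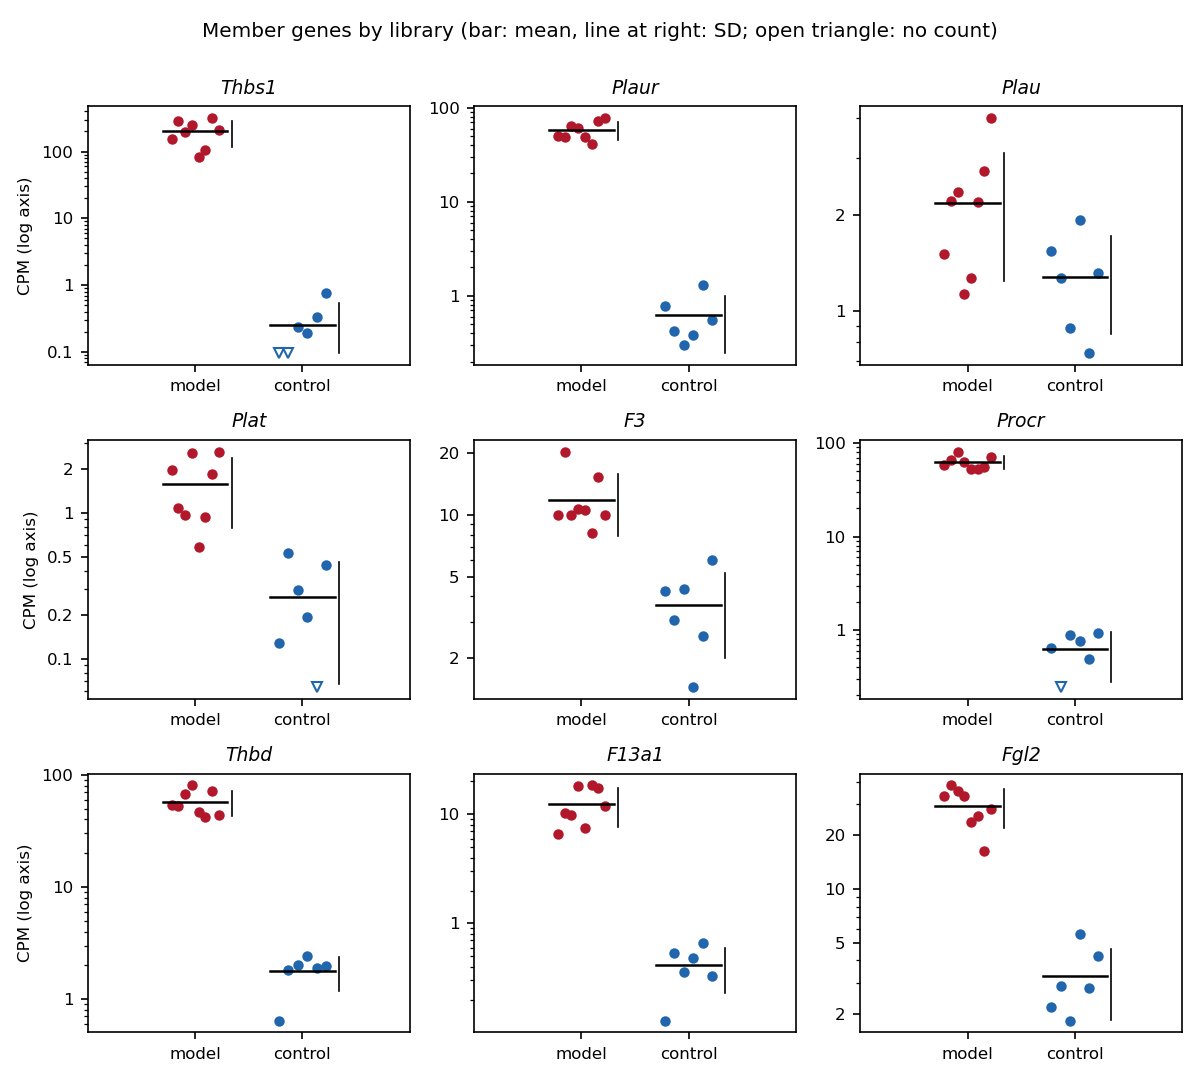
CPM (log axis) of the 9 genes in each of 8 model and 6 control libraries, with the group mean as a bar, the SD as a line at its right (cut at the lowest plotted level) and libraries without a count as open triangles. Model and control values stand apart for 8 genes, while for Plau 5 of 8 model values lie above the highest control value and the others overlap.

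Promoter sequence was at hand for 5 of the members, from RefSeq on build GRCm38.p6, which is not the build of the counts. The 200 bases before a RefSeq transcript start of Plaur, F3, Procr and Fgl2 are shown because these 4 promoters hold the letters of the AP-1 motif, TGANTCA, on either strand. Capitals mark those letters. The transcript start used is the start of the RefSeq gene for F3 and Fgl2, and is not for Plaur and Procr.
Plaur, chr7:24462283-24462482, plus strand: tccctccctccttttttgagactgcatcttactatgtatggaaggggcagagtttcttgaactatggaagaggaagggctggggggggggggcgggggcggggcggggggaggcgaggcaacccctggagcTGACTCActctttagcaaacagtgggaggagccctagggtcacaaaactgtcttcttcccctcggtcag
F3, chr3:121723337-121723536, plus strand: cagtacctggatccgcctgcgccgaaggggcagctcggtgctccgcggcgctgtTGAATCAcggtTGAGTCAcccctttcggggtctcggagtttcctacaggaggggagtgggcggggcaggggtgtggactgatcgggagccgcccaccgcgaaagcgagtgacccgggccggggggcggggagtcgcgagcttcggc
Procr, chr2:155751017-155751216, plus strand: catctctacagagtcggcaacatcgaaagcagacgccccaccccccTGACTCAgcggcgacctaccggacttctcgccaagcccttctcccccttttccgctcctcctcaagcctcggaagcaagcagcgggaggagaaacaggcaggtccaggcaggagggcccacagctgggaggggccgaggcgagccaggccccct
Fgl2, chr5:21372473-21372672, plus strand: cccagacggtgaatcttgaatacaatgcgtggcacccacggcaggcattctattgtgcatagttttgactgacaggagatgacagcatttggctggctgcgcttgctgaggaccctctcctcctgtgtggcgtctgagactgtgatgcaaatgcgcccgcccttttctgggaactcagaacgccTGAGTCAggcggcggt
The AP-1 letters began 69 bases before the start site in Plaur, 146 and 135 bases before it in F3, 154 in Procr and 16 in Fgl2. In Plaur a match to the Egr1 motif, GCGNGGGCG, began 109 bases before the start and did not overlap the AP-1 letters. The AP-1 motif stood in 5.48% of 32851 RefSeq windows of the same length, the Egr1 motif in 4.28% and the NF-kB motif in 3.18%. No NF-kB match was in these 4 windows. Neither window of F13a1 held any of the 3 motifs. Matches describe the letters of these windows, and binding was not measured.

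The urokinase receptor rose strongly in model livers, while the gene of its ligand did not pass the test. Levels are given as CPM, counts scaled to a common library size and not corrected for gene length. Plaur (ENSMUSG00000046223.11, chromosome 7) ranged from 41.6 to 78.1 CPM around a median of 55.6 in model livers, against 0.296 to 1.32 CPM around a median of 0.486 in control livers. The lowest model library stood well above the highest control library (log2 fold change 6.55, SE 0.33, adjusted p = 1.01e-10). Plau (ENSMUSG00000021822.4, chromosome 14) encodes urokinase and was low in both groups. It ranged from 1.13 to 4.00 CPM around a median of 2.20 in model livers, against 0.742 to 1.93 CPM around a median of 1.29 in control livers. Its log2 fold change was 0.79 (SE 0.32, unadjusted p = 0.0253, adjusted p = 0.0522 by edgeR), just outside the threshold. The call turned on the setting: Plau passed with DESeq2 (adjusted p = 0.0443), with the exonic length offset (0.0295), without model 3 and model 4 (0.0356), and without any 1 of model 1, model 4, model 5 or control 4 (0.0273 to 0.0440). Its fold of 1.72 had a 95% interval of 1.11 to 2.67. This interval uses a normal approximation and is narrower than one from the edgeR test would be.

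Plat (ENSMUSG00000031538.7, chromosome 8), the gene of tissue plasminogen activator, rose, from very few counts in control livers. Model livers ranged from 0.587 to 2.62 CPM around a median of 1.46, against 0 to 0.530 CPM around a median of 0.245 in control livers. The groups did not overlap, but they rested on 163 counts in all model libraries and 21 in all control libraries. The log2 fold change was 2.49 (SE 0.50, adjusted p = 0.000541). Leaving out model 1, 2, 4, 6, 7 or 8 took Plat below the low-count filter, so no value exists for those settings.

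Other genes of the plasminogen system were taken from a list of 20, of which 15 had enough counts. Of these, 5 were higher, 1 lower and 9 not called, and the median log2 fold change was 0.54. Over all genes tested, 26.6% were called higher and 21.3% lower, and these shares stand beside the counts of every list below. Anxa2, which encodes annexin A2, a cell surface co-receptor of plasminogen and tissue plasminogen activator, averaged 102 ± 32.9 CPM in model livers and 13.7 ± 3.11 CPM in control livers (SD, n = 8 and 6). Its log2 fold change of 2.91 (SE 0.24, adjusted p = 2.77e-08) was the largest of the list. The precursor gene Plg, made by hepatocytes, averaged 1435 ± 268 CPM in model livers and 879 ± 389 CPM in control livers, with overlapping ranges (log2 fold change 0.71, SE 0.25, adjusted p = 0.026). The call of Plg was lost with upper-quartile factors (adjusted p = 0.0792), with library totals (0.241) and without any 1 of model 2 or control 1, 2, 4 or 5 (0.0509 to 0.0932). F12, factor XII, and Eno1, enolase, which binds plasminogen, rose by 0.77 (SE 0.20) and 0.75 (SE 0.22) on the log2 scale. Klkb1, plasma prekallikrein, was the only one lower (log2 fold change -0.63, SE 0.22, adjusted p = 0.0279). Its call was lost without any 1 of model 7, control 1 or control 6 (adjusted p = 0.0508 to 0.0674). It was also lost without model 7 and model 8 (-0.37, adjusted p = 0.0507) and with the replicate block (-0.41, 0.0976). Among inhibitors of fibrin breakdown, Serpinf2, the plasmin inhibitor alpha 2-antiplasmin, was at 0.17 (SE 0.17), and Cpb2, the fibrinolysis inhibitor TAFI, at 0.33 (SE 0.17), and neither passed the test, although Cpb2 did without model 3 and model 4 (0.46, adjusted p = 0.0388). The protease inhibitor genes A2m, Serpina5 and Serpinb2 were too low to test, at 1.38 ± 1.55, 0.554 ± 0.310 and 1.04 ± 0.817 CPM in model livers and 0.0716 ± 0.0899, 0.0594 ± 0.0728 and 0.0252 ± 0.0412 CPM in control livers. The number of genes called higher was 3 without model 2 and 1 with library totals, on which F12 and Eno1 were not called (adjusted p = 0.0992 and 0.141).

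Partners of the urokinase receptor were higher in all 5 tested cases of 6, with a median of 2.75. The smallest changes were those of Igf2r, at 0.93 (SE 0.36), and Vtn, vitronectin, at 0.54 (SE 0.20). Their values overlapped between the groups (edgeR adjusted p = 0.0419 and 0.0309). The integrin subunits Itgam and Itgb2, which pair as Mac-1 on neutrophils and macrophages, led the list. Itgam averaged 14.6 ± 3.95 CPM in model livers and 0.258 ± 0.185 CPM in control livers, and Itgb2 averaged 57.2 ± 14.2 CPM in model livers and 2.61 ± 1.62 CPM in control livers. Log2 fold changes were 5.65 (SE 0.40) for Itgam, 4.41 (SE 0.33) for Itgb2 and 2.75 (SE 0.31) for Itga5, the fibronectin receptor subunit, with edgeR adjusted p from 3.79e-09 to 9.57e-07. Itgam is also on the neutrophil marker list. The 9 neutrophil markers were all called higher, and their summed level ran from 1230 to 2812 CPM in model livers, against 4.50 to 16.7 CPM in control livers. The sum was highest in model 5, where Plaur was 49.0 CPM, and lowest in model 7, where Plaur was 72.9 CPM. The part of neutrophils in the rise of Plaur was not tested. The number of partners called fell to 3 with upper-quartile factors, with library totals, and without model 2, control 1 or control 4.

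Tissue factor rose modestly, while its inhibitors did not pass the test with TMM factors. F3 (ENSMUSG00000028128.14, chromosome 3) ranged from 8.14 to 20.3 CPM around a median of 10.3 in model livers, against 1.45 to 6.02 CPM around a median of 3.66 in control livers. The groups did not overlap, and model 2 and model 7 stood above the other model livers at 20.3 and 15.3 CPM (log2 fold change 1.70, SE 0.30, adjusted p = 0.000158). Tfpi, the tissue factor pathway inhibitor, averaged 7.50 ± 2.15 CPM in model livers and 6.32 ± 1.59 CPM in control livers (log2 fold change 0.25, SE 0.23, adjusted p = 0.381). Tfpi2, a related inhibitor, was at -0.34 (SE 0.26), and was called lower with library totals (-0.57, adjusted p = 0.0277). F7 and F10, the plasma factors that tissue factor engages, were at 0.05 (SE 0.20) and 0.06 (SE 0.19). The share called higher over all genes tested was 26.6%. Of 6 tested genes of the 9 in this list, 2 were higher and 0 lower, with a median of 0.16. They were F2, prothrombin, at 0.57 (SE 0.16, adjusted p = 0.00794), and F2r, the main thrombin receptor, at 0.91 (SE 0.29, adjusted p = 0.0153). Both calls were lost with library totals (adjusted p = 0.141 and 0.106), F2 also with upper-quartile factors (0.056) and F2r also without model 2 (0.056). The related receptor genes F2rl1, F2rl2 and F2rl3 were too low to test.

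Both endothelial anticoagulant receptors rose far more than tissue factor. Procr (ENSMUSG00000027611.13, chromosome 2), the endothelial protein C receptor, ranged from 52.5 to 81.1 CPM around a median of 60.5 in model livers, against 0 to 0.930 CPM around a median of 0.707 in control livers. Control 2 had no count (log2 fold change 6.56, SE 0.37, adjusted p = 2.68e-10). Thbd (ENSMUSG00000074743.5, chromosome 2), thrombomodulin, ranged from 42.3 to 80.4 CPM around a median of 53.1 in model livers, against 0.642 to 2.41 CPM around a median of 1.93 in control livers. Control 1 lay below the other controls (log2 fold change 4.97, SE 0.28, adjusted p = 2.63e-10). Among the model livers Procr had the smallest spread of the 9 genes, with a coefficient of variation of 15.7%, against 24.7% for Thbd.

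Endothelial markers moved beside these receptors, in both directions. Of 8 vascular endothelial markers, 5 were higher and 1 lower, with a summed level of 122 to 246 CPM in model livers, against 33.1 to 51.2 CPM in control livers. Cdh5, VE-cadherin, rose by 3.50 (SE 0.37) on the log2 scale, Sele, an adhesion molecule of activated endothelium, by 9.85 (SE 0.73), and Pecam1 by 1.73 (SE 0.19), while Tek fell by 1.19 (SE 0.32). Of 8 sinusoidal markers, 2 were higher and 1 lower, with sums of 188 to 369 CPM in model livers, against 121 to 192 CPM in control livers. The number of sinusoidal markers called lower moved under 8 of 24 alternatives, to at most 2. The median log2 fold change was 0.11 for the sinusoidal list and 1.42 for the vascular list. Over all genes tested, 26.6% were called higher and 21.3% lower. Lyve1 rose by 4.65 (SE 0.27) and Stab1 by 1.80 (SE 0.27), while Clec4g fell by 1.80 (SE 0.34). No vascular or sinusoidal marker was at 0 in every control. Their part in the rise of Procr and Thbd was not tested.

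Protein S led the plasma side of the protein C pathway, while protein C itself did not pass the test. The list of 8 also held Serpinc1 and Serpind1, inhibitor genes from outside that pathway. Of its 6 tested genes, 3 were higher and 0 lower (median 0.59). Pros1, protein S, the cofactor of activated protein C, averaged 50.3 ± 11.1 CPM in model livers and 23.3 ± 8.87 CPM in control livers (log2 fold change 1.11, SE 0.23, adjusted p = 0.000622). Serpinc1, antithrombin, rose by 0.53 (SE 0.16) and F8, factor VIII, by 1.06 (SE 0.38). Proc, protein C itself, was at 0.26 (SE 0.18, adjusted p = 0.239), and passed without model 7 and model 8 (0.42, adjusted p = 0.0266). The calls of Serpinc1 and F8 were lost with library totals (adjusted p = 0.173 and 0.112) and with the exonic length offset (0.164 and 0.0557), and F8 lost its call under 11 of 24 alternatives, among them the omission of model 2, model 4, control 1, control 2, control 4 or control 5.

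F13a1 and Fgl2 rose on the fibrin side. F13a1 (ENSMUSG00000039109.18, chromosome 13) encodes the catalytic subunit of factor XIII, which monocytes, macrophages and megakaryocytes make. It ranged from 6.60 to 18.4 CPM around a median of 11.1 in model livers, against 0.128 to 0.659 CPM around a median of 0.419 in control livers (log2 fold change 4.88, SE 0.37, adjusted p = 7.41e-09). Model 4, 6 and 7 stood at 17.3 to 18.4 CPM, and all other model livers at or below 11.9 CPM. F13a1 shares exonic bases with Gm30489 on the other strand in the GENCODE M21 annotation of GRCm38, and without a known strand setting its reads may include that gene's. Fgl2 (ENSMUSG00000039899.6, chromosome 5), a fibrinogen-like protein that as a membrane protein of macrophages and endothelium can cleave prothrombin, ranged from 16.5 to 38.1 CPM around a median of 30.7 in model livers. Control livers ranged from 1.84 to 5.60 CPM around a median of 2.83. The groups did not overlap, with model 7 lowest of the model livers (log2 fold change 3.16, SE 0.28, adjusted p = 7.02e-08).

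Myeloid markers were higher in the same livers. Of 7 monocyte markers 6 were called higher, with sums of 626 to 1206 CPM in model livers, against 105 to 663 CPM in control livers. The highest control sum was that of control 6, of which 649 CPM was Fn1. Fn1 was the 1 monocyte marker not called (edgeR adjusted p = 0.0739). It made up much of these sums, at 452 ± 260 CPM in model livers and 207 ± 223 CPM in control livers. Chil3 rose by 6.58 (SE 0.39) on the log2 scale and Vcan by 6.07 (SE 0.55). Kupffer cell markers went both ways (3 of 8 higher, 2 lower, sums of 249 to 539 CPM in model livers and 239 to 379 CPM in control livers). Among them Marco rose by 4.30 (SE 0.37), while Vsig4 fell by 1.31 (SE 0.27). Of 6 dendritic cell markers, 3 were tested and 2 were higher, with sums of 9.84 to 13.9 CPM in model livers, against 3.47 to 4.98 CPM in control livers. Their part in the rise of F13a1 and Fgl2 was not tested.

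Among fibrin and crosslinking genes other than the members, Tgm2 had the clearest increase. The fibrinogen chain genes had smaller increases that depended in part on the setting. Of 8 genes of fibrin, crosslinking and fibrinogen-like proteins, 5 were higher and 0 lower, with a median of 1.07. The fibrinogen chain genes Fga, Fgb and Fgg had log2 fold changes of 1.23 (SE 0.38), 0.96 (SE 0.36) and 1.02 (SE 0.32), with adjusted p = 0.0118, 0.0377 and 0.0128. The call of Fga was lost without model 7 and model 8 (adjusted p = 0.0515), with the replicate block (0.0505) and with library totals (0.0569). Fgb lost its call under 12 of 24 alternatives, among them the replicate block (log2 fold change 0.44, adjusted p = 0.168), library totals (0.73, 0.144) and the omission of model 7 and model 8 together (0.48, 0.184). Its call was also lost without any 1 of model 2, model 7, model 8 or control 1, 2, 3 or 4 (adjusted p = 0.0575 to 0.0885). Fgg lost its call with library totals (adjusted p = 0.0689). Tgm2, tissue transglutaminase, which crosslinks proteins, averaged 408 ± 209 CPM in model livers and 42.9 ± 19.8 CPM in control livers (log2 fold change 3.24, SE 0.39, adjusted p = 2.34e-06). Tgm1 passed at 2.44 (SE 0.84), but its log2 fold change was 0.036 without model 7 and model 8 (adjusted p = 0.928), 1.87 without model 7 and 1.78 without model 8 (0.0556 and 0.0626), and its call was also lost with DESeq2 (0.975) and without control 4 (0.0537). F13b, the carrier subunit of factor XIII made by hepatocytes, was at 0.21 (SE 0.17) and Fgl1, a hepatocyte relative of Fgl2, at 0.50 (SE 0.31), and neither passed, although Fgl1 did without model 3 and model 4 (0.72, adjusted p = 0.0475).

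**Figure D2:**
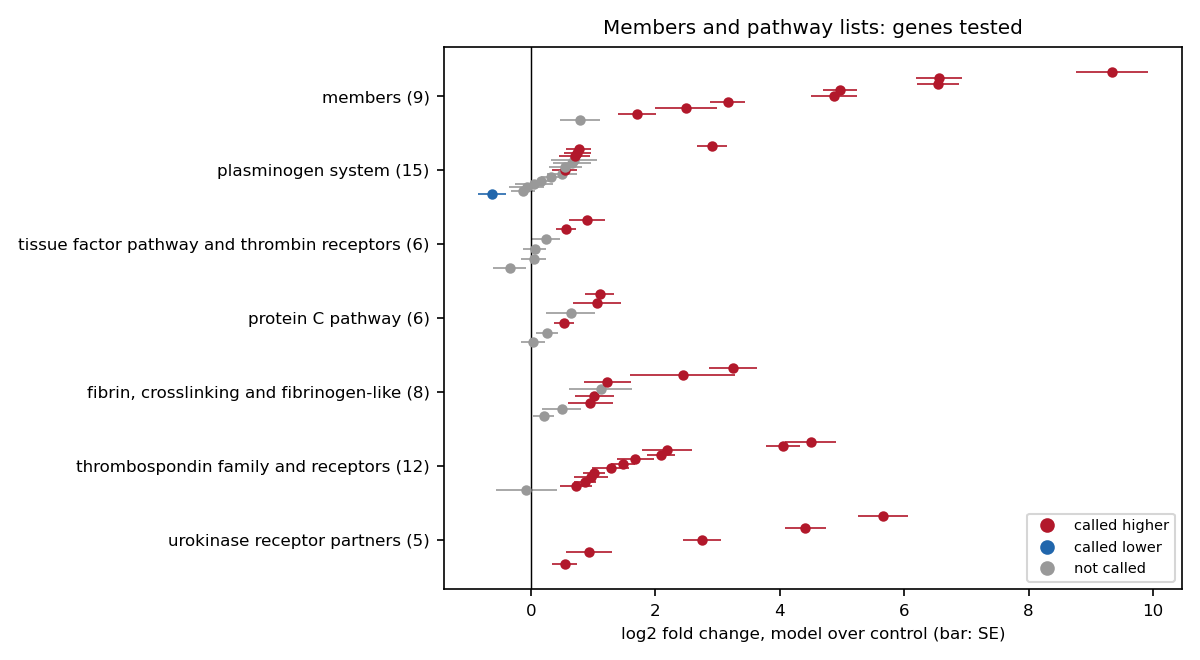
Log2 fold change, model over control, with its SE as a bar, for the 9 members and for the genes tested of each pathway list (number tested in parentheses). Red marks genes called higher, blue the 1 gene called lower (Klkb1) and grey genes not called; plasma-side lists lie mostly below 1.5, while Thbs1 stands farthest right at 9.34.

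Thbs1 (ENSMUSG00000040152.9, chromosome 2) had the largest increase of the 9 members, and the 22nd largest fold of all 12915 genes. It ranged from 83.2 to 319 CPM around a median of 202 in model livers, against 0 to 0.766 CPM around a median of 0.215 in control livers. Control 1 and control 2 had no count, and all controls together held 24 counts against 21275 in model libraries (log2 fold change 9.34, SE 0.58, adjusted p = 8.86e-10). Without single libraries the log2 fold change lay between 9.14 and 10.14. Model 5 and model 6 were lowest, at 83.2 and 104 CPM, and model 7 and model 2 highest, at 319 and 285 CPM. Thbs1 shares exonic bases with Gm29233 on the other strand in the GENCODE M21 annotation of GRCm38.

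Platelets carry thrombospondin 1, and platelet and megakaryocyte markers were higher in model livers at a low level. All 4 tested of 8 were called higher, among them Ppbp (log2 fold change 4.47, SE 0.63), Pf4 (2.85, SE 0.49) and Itga2b (2.72, SE 0.37), and Gp1bb had no count in any library. Their sum ran from 8.42 to 51.4 CPM in model livers, against 2.31 to 3.05 CPM in control livers. In model 7, where Thbs1 was highest, the sums were 12.8 CPM for platelet, 239 CPM for vascular endothelial and 1203 CPM for monocyte markers. In model 5, where Thbs1 was lowest, they were 20.8, 122 and 626 CPM. Stellate cell and fibroblast markers summed to 335 to 651 CPM in model livers, against 145 to 208 CPM in control livers, with 6 of 8 higher and 1 lower. Dcn, decorin, rose by 1.70 (SE 0.21) and Lrat, of retinoid storage, fell by 2.67 (SE 0.34). Mesothelial markers, of which 2 of 3 tested were higher, summed to 4.99 to 18.6 CPM in model livers, against 0.412 to 7.28 CPM in control livers. The part of these cells in the rise of Thbs1 was not tested.

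Receptors and TGF-beta partners of thrombospondin 1 were mostly higher, while the 1 tested relative did not pass the test. Thbs2 averaged 0.950 ± 0.658 CPM in model livers and 0.982 ± 0.673 CPM in control livers (log2 fold change -0.07, SE 0.49, adjusted p = 0.913), and Thbs3, Thbs4 and Comp were too low to test. Of 12 tested genes of 15, 11 were higher and 0 lower, with a median of 1.39. Adamts1, a protease that cuts thrombospondins, averaged 55.9 ± 21.9 CPM in model livers and 2.37 ± 1.60 CPM in control livers (log2 fold change 4.50, SE 0.41, adjusted p = 8.29e-08). Itgb3, the beta subunit of a thrombospondin receptor, averaged 27.1 ± 7.45 CPM in model livers and 1.60 ± 0.504 CPM in control livers (4.05, SE 0.27, adjusted p = 1.72e-09). Tgfb1, the cytokine whose latent form thrombospondin 1 activates, averaged 20.6 ± 4.91 CPM in model livers and 4.84 ± 1.23 CPM in control livers (2.09, SE 0.23). The receptors Cd47 and Cd36 had log2 fold changes of 0.87 (SE 0.18, adjusted p = 0.000525) and 0.73 (SE 0.26, adjusted p = 0.0279). The call of Cd36 was lost with upper-quartile factors (0.0733), with library totals (0.11) and without any 1 of model 2, model 4, control 2 or control 3 (adjusted p = 0.0542 to 0.0712).

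Ratios of 2 genes within a library do not depend on how libraries are scaled, and 6 were compared with a two-sided exact permutation test over all 3003 splits of 8 and 6 libraries. The smallest p that this test can give is 0.000333. Plaur, Plat, Thbd and Procr passed the low-count filter only because of the model libraries. The ratios restate in part the changes of the members given above, and are no separate support for them. The log2 ratio of Plaur to Plau averaged 4.79 ± 0.50 in model livers and -1.09 ± 1.01 in control livers (SD, n = 8 and 6), a difference of 5.88 shown by all 8 model livers (exact p = 0.000333, adjusted p = 0.000999 over the 6 ratios). The ratio of Plau to Plat averaged 0.52 ± 0.86 in model livers and 2.42 ± 1.21 in control livers, a difference of -1.91 (exact p = 0.000999, adjusted p = 0.0012). Plat had only 0 to 8 counts in each control library, so the 0.5 count added weighs on the control ratios. The difference was -1.64 with 1 count added and -1.54 without control 5, which had no Plat count. Of 8 model livers, 6 lay below every control for this ratio.

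Tissue factor gained on its inhibitor and lost against thrombomodulin. The ratio of F3 to Tfpi averaged 0.64 ± 0.62 in model livers and -0.90 ± 0.95 in control livers (difference 1.54, exact p = 0.00133, adjusted p = 0.00133), and 6 of 8 model livers lay above every control. The ratio of F3 to Thbd averaged -2.29 ± 0.46 in model livers and 0.96 ± 1.12 in control livers (difference -3.25, exact p = 0.000333, adjusted p = 0.000999), with all 8 model livers below every control. The ratio of Thbd to Procr averaged -0.15 ± 0.36 in model livers and 1.80 ± 1.75 in control livers (difference -1.95, exact p = 0.000999, adjusted p = 0.0012). Without control 2, which had no Procr count, that difference was -1.28 (adjusted p = 0.00233). The ratio of Fgl2 to Fgl1 averaged -4.05 ± 0.95 in model livers and -6.82 ± 0.90 in control livers (difference 2.77, exact p = 0.000666, adjusted p = 0.0012), with all 8 model livers above every control.

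**Figure D3:**
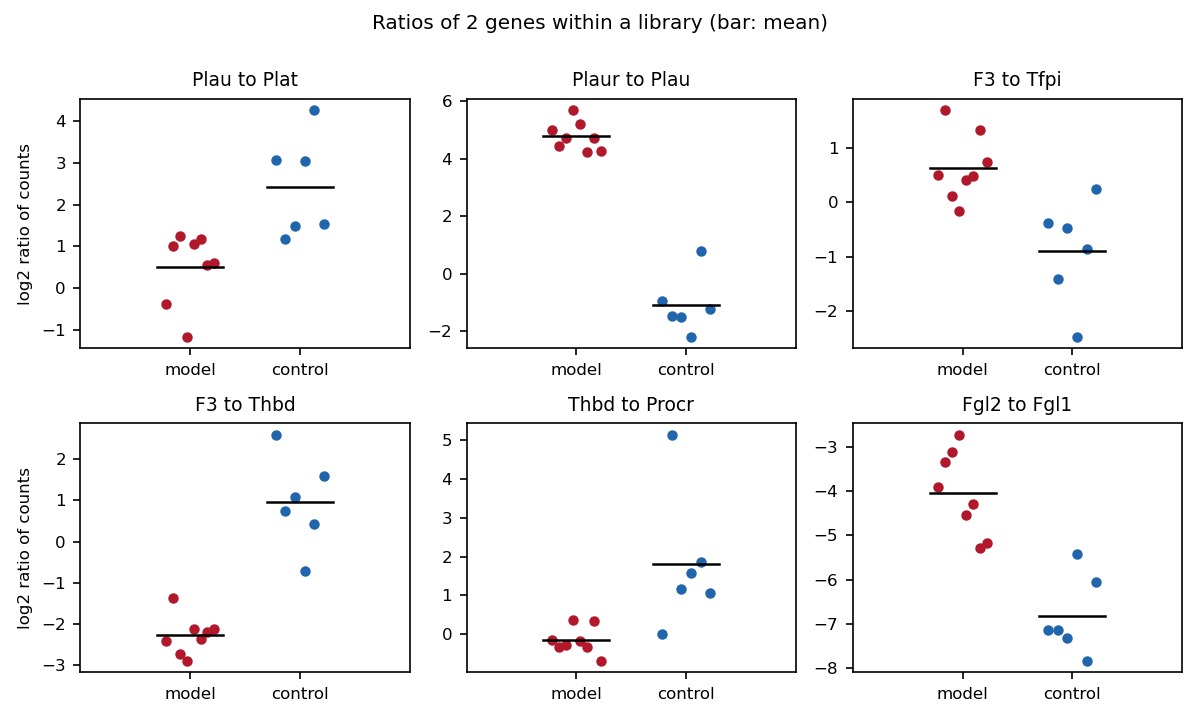
Log2 ratio of the counts of 2 genes, with 0.5 count added to each, in each of 8 model and 6 control libraries, with the group mean as a bar. Groups do not overlap for Plaur to Plau, F3 to Thbd and Fgl2 to Fgl1, and overlap for the other 3 ratios.

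Per unit of transcript length the order of the members differed between the groups. Levels in TPM (counts per base of exon, scaled to a fixed total in each library), computed from the counts and the exonic lengths of GENCODE M21, were highest for Thbs1 in model livers (63.5 ± 33.8 TPM, SD, n = 8), followed by Procr (57.0 ± 12.6 TPM), Plaur (42.1 ± 15.4 TPM), Thbd (28.6 ± 9.31 TPM), Fgl2 (14.2 ± 3.79 TPM) and F3 (8.88 ± 3.86 TPM). F13a1, Plau and Plat followed at 3.59 ± 1.77, 1.78 ± 1.04 and 0.490 ± 0.300 TPM. The first neighbours could not be ordered, since Thbs1 lay above Procr in 3 of 8 model livers, whereas each later neighbour held its place in at least 7 of 8. In control livers F3 led at 3.27 ± 2.08 TPM, ahead of Fgl2 at 1.82 ± 0.828 TPM, Plau at 1.12 ± 0.308 TPM and Thbd at 1.05 ± 0.436 TPM (SD, n = 6). Plau lay above Thbd in 4 of 6 control livers, and Procr above Plaur in 4 of 6, so these neighbours were not ordered beyond their spread. Thbs1 was eighth there at 0.106 ± 0.135 TPM, and Plat, at 0.0941 ± 0.0774 TPM, was not separable from it (3 of 6 livers in each order).

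Some model livers were low or high for most members, while the highest liver differed between genes. On the log2 scale, model 5 lay below the model mean for all 9 genes, by 0.50 on average, and model 1 and model 6 were above it for 2 of 9. Model 4 and model 7 were above it for 7 of 9, and model 3 and model 8 for 6 of 9. The highest library was model 8 for Plaur, Plau and Plat, model 2 for F3 and Fgl2, model 3 for Procr, model 4 for Thbd, model 6 for F13a1 and model 7 for Thbs1. Within model 7, Thbs1 was 0.81 above its model mean and Fgl2 0.78 below its own. Thbs1 varied 3.84-fold between the highest and lowest model library, Plat 4.46-fold and Procr 1.55-fold.

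**Figure D4:**
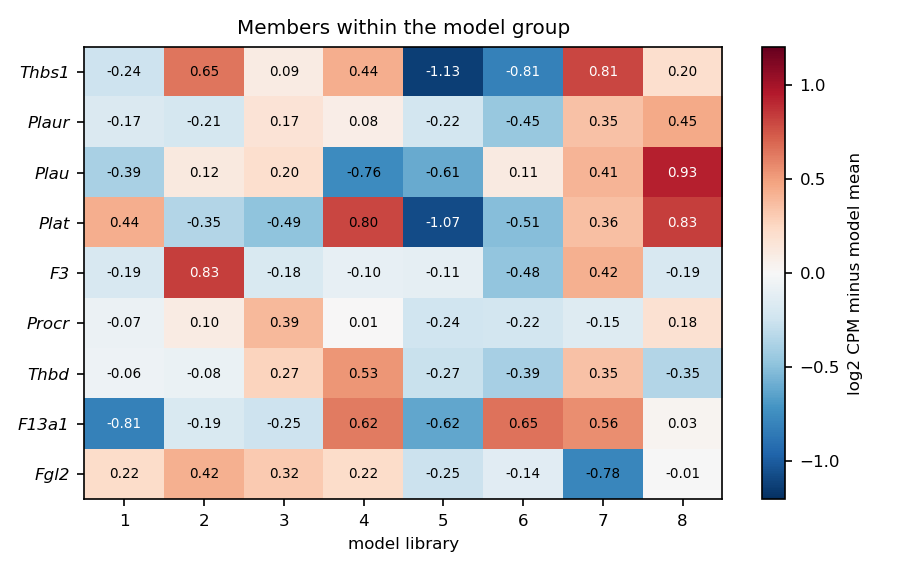
Log2 CPM of each member minus its mean over the 8 model libraries, one column per library, with values printed in the cells. Model 5 is below the mean for all 9 genes, with its lowest values for Thbs1 (-1.13) and Plat (-1.07), while the highest library differs from gene to gene.

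Among 9136 tested genes that reached a mean of 5 CPM in a group, those with the most similar profile over the 14 livers were sought for each member. The measure was the root mean square difference of log2 CPM after each gene's own mean was subtracted, and it follows the difference between the groups as well as the spread within them. Plaur was nearest to Plek (0.41) and Hdc (0.43), Procr to Slamf7 (0.48) and Cd14 (0.58), and Thbd to Spic (0.30) and Oas2 (0.33). F3 was nearest to Nuak2 (0.28) and Igsf8 (0.31), Fgl2 to Cd53 (0.35) and Sp100 (0.36), F13a1 to Stc1 (0.47) and Cfap69 (0.48), Plat to Tlnrd1 (0.51) and Bcam (0.54), and Plau to Trmt10a (0.29) and Tank (0.32). The second nearest gene to Thbs1 was Acod1, at 0.88, a larger difference than for any other member named.

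Library depths overlapped between the groups, with 3 of 6 control libraries below the lowest model library. Counts in genes totalled 10329469 to 16639972 in model libraries and 7914120 to 14463540 in control libraries. The 7 hepatocyte markers with a row summed to 71234 to 83671 CPM in model livers and 47037 to 68047 CPM in control livers, so hepatocyte mRNA was plentiful in every library. Of these markers, 1 was called higher (Alb) and 0 lower. The call of Alb was lost with library totals (log2 fold change 0.56, edgeR adjusted p = 0.0693). The number called higher ran from 0 to 3 over the alternatives. Scaling to library totals moved the median log2 fold change of all genes to -0.23 and gave 2533 higher and 3955 lower calls, against 3437 and 2751 with TMM factors, and all 8 called members kept their call and direction.

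**Figure D5:**
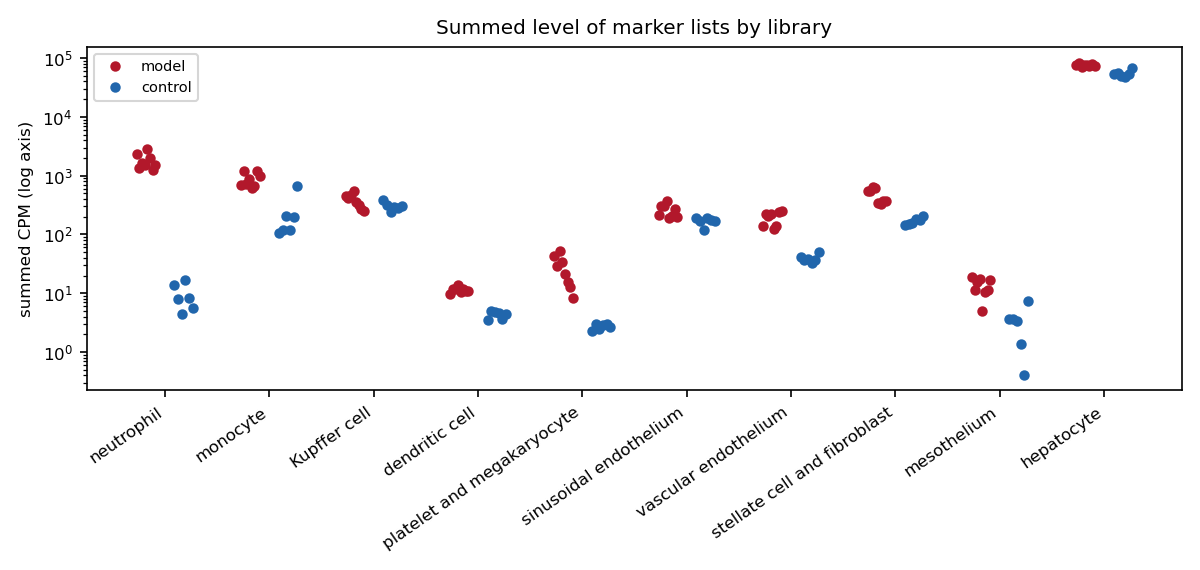
Summed CPM (log axis) of each marker list in 8 model and 6 control libraries, side by side for each list. Neutrophil sums lie at 1230 to 2812 CPM in model livers, against 4.50 to 16.7 CPM in control livers. Monocyte, Kupffer cell, sinusoidal endothelial and mesothelial sums overlap between the groups.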

How the data were processed

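Polyadenylated liver RNA was sequenced on an Illumina instrument, per the labels' protocols. The authors deposited raw read counts per gene, 1 file per library, after HISAT2 alignment to GRCm39, per the submitters' processing notes. Which program counted the reads, on which strand and with which annotation is not stated in the labels. The 5 closing summary lines of each file name no gene, held 27.4% to 45.6% of its entries, and were left out.

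Genes were filtered with filterByExpr (12915 of 55357 kept) and tested with edgeR 4.0.16 in R 4.3.3 (TMM factors, robust quasi-likelihood fit, group as the only term, Benjamini-Hochberg adjustment, threshold 0.05). The SE was taken from the fold change and the F statistic. CPM used the TMM factors, and log2 CPM a prior count of 2. Ratios had 0.5 count added and were tested with an exact permutation test. Exonic lengths came from GENCODE M21 (GRCm38) by gene identifier, for 99.9% of tested genes. The tests were checked on simulated counts.

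Named genes were all 9 members, up to 3 called genes per list (mean over 5 CPM in a group) plus 1 in the other direction, and the 2 nearest profiles of each member. Others in the text were named after their values were seen. Members, 6 pathway lists and 10 marker lists were chosen with earlier results of these data known. One list symbol had no row. PAI-1 is not reported here. No pair of libraries within a group agreed within sampling noise (smallest chi-square per degree of freedom 23.3 over 43 pairs). Alternatives were other scaling factors, no low-count filter, DESeq2 1.42.0, limma-voom (limma 3.58.1), a replicate block, an exonic length offset and the omission of libraries.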

Additional observations from a re-analysis of the deposited data

Results flagged for a closer look

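Over 30 groups of values (9 genes and 6 ratios, in model and control), 2 held a library that stood apart from its own group by Dixon's criterion at 95%, where chance gives about 1 in 20. Thbd in control 1 was at 0.642 CPM, against 1.80 to 2.41 CPM in the other controls. The log2 ratio of Thbd to Procr in control 2 was 5.13, against 0 to 1.85 in the other controls, in a library with no Procr count.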

How the results depend on the processing

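Each result was recomputed under up to 24 alternatives. Thbs1, Plaur, F3, Procr, Thbd, F13a1 and Fgl2 kept their call and direction under all 24, and Plat under the 16 in which it was tested. Plau had a log2 fold change of 0.76 with DESeq2, 0.91 with the exonic length offset and 0.89 without model 3 and model 4, where it passed, and 0.61 to 0.93 without single libraries. The 6 ratios kept direction and call under every alternative run for them. Normalization alternatives leave a ratio as it is, and the other tools, the filter and the offset were not run for ratios.

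Counts of list genes called moved with scaling. With upper-quartile factors 3 plasminogen, 1 tissue factor, 1 protein C and 3 urokinase receptor partner genes were higher. With library totals the numbers higher were 1, 0, 1 and 3, with 2 fibrin genes higher and 1 tissue factor gene lower. Without a low-count filter 8 plasminogen and 4 tissue factor genes were higher, and with the length offset 1 protein C gene. Without model 7 and model 8, 2 fibrin genes were higher and 0 plasminogen genes lower. Without single libraries the number higher ranged over 3 to 6 for plasminogen, 1 to 2 for tissue factor, 2 to 4 for protein C, 3 to 6 for fibrin and 3 to 5 for partners, and 0 to 1 plasminogen genes were lower.

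Of the list genes that were not called, some changed sign. With library totals the log2 fold changes were -0.23 for F7, -0.20 for F10, -0.063 for F13b, -0.016 for Proc and -0.10 for Serpinf2, and with upper-quartile factors -0.10 for F7 and -0.081 for F10. F7 was at -0.038 without model 3 and model 4 and at -0.055 to 0.14 without single libraries. Thbs2 was at 0.19 with the replicate block, 0.25 without model 7 and model 8, and -0.27 to 0.23 without single libraries. The cause was not tested.

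Model and control share replicate numbers 1 to 6, and the labels do not say what a number stands for. Same-numbered libraries deviated together (r over 0.1) in 1 of 6 pairs, and 1 of 6 model libraries correlated best with its own number. Such weak correlations cannot exclude a shared litter, cage or day. With the replicate block 5375 genes were called in place of 6188, 2 fibrin genes were higher and 0 plasminogen genes lower, Plau was at 0.49 (adjusted p = 0.288), and the 8 called members stayed called. At these depths members under 1 CPM in controls have imprecise folds.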
